A study of Homo sapiens with 2 samples.

Results

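The genes that make cholesterol and fatty acids, together with the factors that control them, were examined as a group of 33 members. They were taken by gene symbol from the 19607 genes of the expression table and comprised 5 regulators, 17 enzymes of sterol synthesis, 10 enzymes of fatty acid synthesis and the sterol carrier STARD4. All 33 were found, and the lowest combined read number of a member was 99. The data came from CWR22rv1, a human prostate cancer cell line. One library was made from CWR22rv1/Akt1/2 DKO cells, in which both AKT1 and AKT2 had been knocked out with Cas9, and 1 library from wild type control cells of the same line. The line was cultured in medium with serum. The knockout cells were derived by puromycin selection and isolation of single-cell clones, and the labels do not say which clone was sequenced, so the genotype and a clone's own features cannot be told apart. With 1 library per condition no difference has a replicate check, no p-value is given, and every interval below covers counting error only.

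Cholesterol is built from acetyl-CoA, first through mevalonate to farnesyl diphosphate, then through squalene and lanosterol to the finished sterol. Fatty acids start from the same acetyl-CoA, which ACLY splits from citrate and which ACACA and FASN turn into palmitate. Both pathways are controlled by SREBP transcription factors: SREBF2 is best known for sterol genes, and SREBF1 for fatty acid genes. The precursors are held in the endoplasmic reticulum by INSIG proteins when sterols are plentiful. When sterols are scarce, SCAP escorts them to the Golgi apparatus, where proteases release the active factor. AKT kinases are known to promote SREBP activity and to phosphorylate ACLY, and prostate cancer cells are known for active lipid synthesis. The table holds RNA levels only, and neither enzyme activity nor cleaved SREBP was measured.

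The control library held 9970815 reads and the Akt1/2 DKO library 10718634. AKT1 had 2645 reads in control and 591 in Akt1/2 DKO, a log2 difference of -2.31 (95% exact interval -2.44 to -2.18). AKT2 had 2362 and 667 reads, a log2 difference of -1.97 (-2.10 to -1.85). The levels of both targeted genes were therefore lower in the library labelled as knockout. Throughout, a log2 difference is Akt1/2 DKO against control after TMM scaling, which takes the Akt1/2 DKO library as 1.11 times the control library, and a gene is called higher or lower when this difference passes 1.5-fold, or 0.585 on the log2 scale. Of 8 genes fixed as markers of prostate epithelium, 6 were lower in Akt1/2 DKO, among them HOXB13 with 2363 reads in control and 865 in Akt1/2 DKO. Of 6 fibroblast markers, the 4 with enough reads to be tested summed to 1032 reads in control and 211 in Akt1/2 DKO, but they did not move together. VIM fell from 897 to 84 reads and COL3A1 from 74 to 9, whereas COL1A1 rose from 55 to 106 and CAV1 from 6 to 12. The other two, SPARC and COL1A2, had at most 3 reads in each library. Fat cells were considered because they express these pathways strongly: ADIPOQ, LEP and FABP4 had 0 reads in both libraries, PLIN1 had 1 and 0, and CIDEC had 0 and 2. The part of the marker differences in the pathway results was not tested.

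Sterol synthesis genes were higher in Akt1/2 DKO as a group, and fatty acid synthesis genes were not. Of the 33 members, 14 passed 1.5-fold (42.4%), against 30.9% of the 13318 genes tested, a set that excludes genes under 10 combined reads. There were 10 higher members (30.3%, against 15.9% of all genes tested) and 4 lower members (12.1%, against 15.0%). Since members are better expressed than many genes, the comparison was also made with the 11754 genes with 50 or more combined reads, of which 25.7% passed 1.5-fold, 13.0% upwards and 12.7% downwards. The share of lower members was thus near the background and that of higher members above it at 1.5-fold. At a 2-fold threshold that excess was absent, with 9.09% of members and 10% of all genes tested higher, and 9.09% and 18.0% changed in either direction. Among the 17 sterol synthesis enzymes, 7 were higher (41.2%), none was lower, and 16 had a log2 difference whose interval lay above 0. Such an interval was found for 3963 of the 13318 genes tested. The median log2 difference of the sterol enzymes was 0.40, beside 0.01 for all genes tested. The 10 fatty acid enzymes included 1 higher gene, FADS2 (10%), and 3 lower genes, SCD, ELOVL6 and ACACA (30%), with a median of -0.07. Only 1 sterol enzyme, LSS, lay below the fatty acid median, and 1 fatty acid enzyme, FADS2, lay above the sterol median. The counts describe these libraries, since the members were chosen with earlier results of the same data known.

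**Figure D1:**
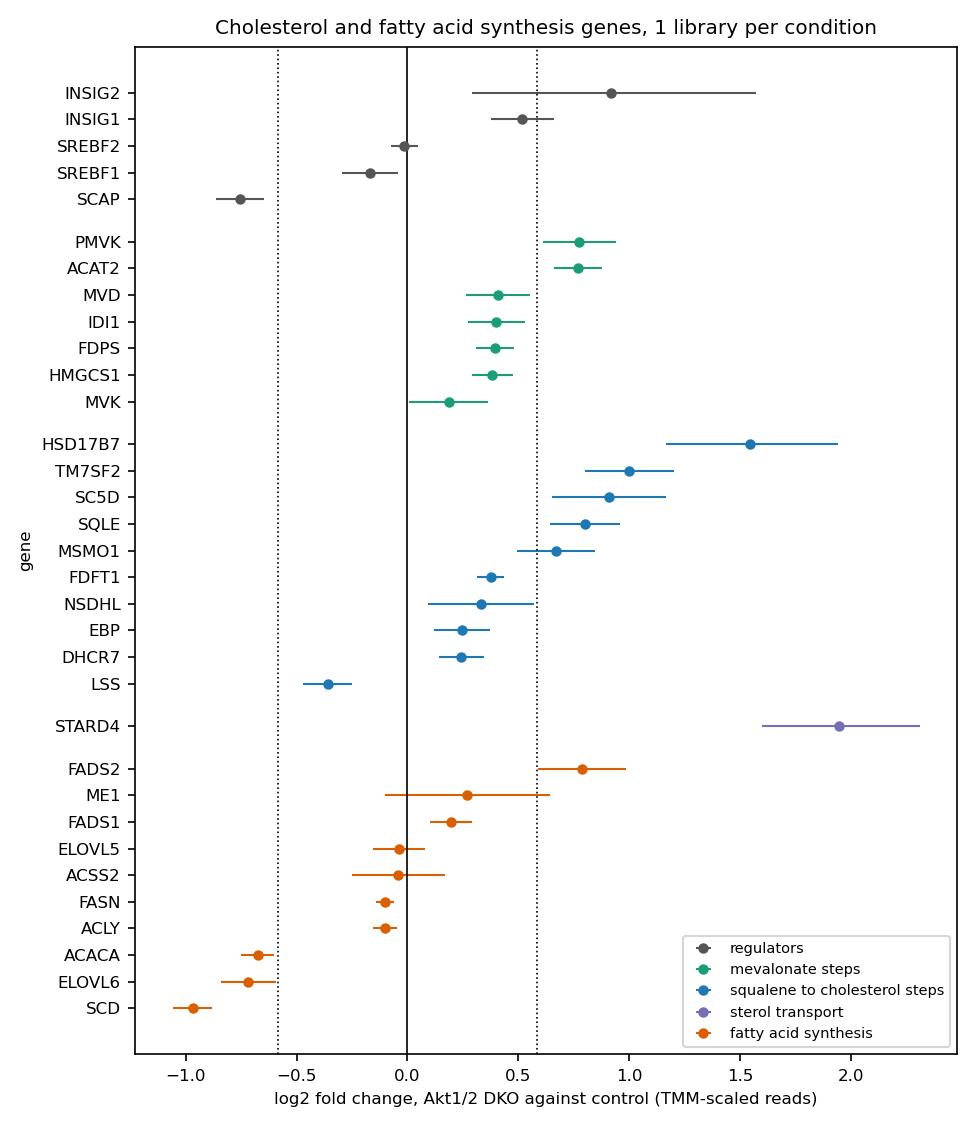
Log2 difference of each of the 33 genes (x axis, Akt1/2 DKO against control, TMM-scaled reads) by gene (y axis), coloured by role; points are single comparisons of 1 library with 1 library, bars are 95% exact counting intervals, and dotted lines mark 1.5-fold. The green and blue sterol enzymes lie to the right of 0 except LSS at -0.36, whereas the orange fatty acid enzymes run from -0.97 (SCD) to 0.79 (FADS2).

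The balance between the pathways can be read from summed values. The sterol enzymes held 0.162% of all reads in control (95% exact interval 0.159% to 0.164%) and 0.221% in Akt1/2 DKO (0.218% to 0.223%). The fatty acid enzymes held 0.261% (0.258% to 0.264%) and 0.230% (0.227% to 0.233%). These shifts run in opposite directions, and each exceeds its counting error. On the authors' FPKM scale, which divides by transcript length and can be compared between genes, the summed level of the sterol enzymes was 867 in control and 1225 in Akt1/2 DKO, a ratio of 1.41. The summed level of the fatty acid enzymes was 506 and 461, a ratio of 0.912. This sum does not describe each gene, since 3 of the 10 fatty acid enzymes were lower, 1 was higher and 6 were within 1.5-fold. All 33 members together held 0.503% of reads in control and 0.529% in Akt1/2 DKO.

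Sequences before the gene starts were compared because SREBP factors bind DNA together with the factors NF-Y and Sp1. RefSeq promoter windows on build GRCh38.p14 were matched by symbol for 29 of the 33 members, 40 windows in all. ACAT2, SQLE, FDFT1 and FASN were not matched. The 250 bases before each start were searched on both strands for the sterol regulatory element TCACNCCAC, the NF-Y box CCAAT, the Sp1 box GGGCGG, the E-box CACGTG and the forkhead core GTAAACA, the last because AKT controls the forkhead factors FOXO. No match of one motif in a member overlapped a match of another. The NF-Y box was found in 13 of 14 sterol enzymes (92.9%) and 5 of 9 fatty acid enzymes (55.6%), beside 41.7% of the 10358 tested genes with a window. All sterol enzymes with a window except PMVK held it. The Sp1 box was found in 13 of 14 sterol enzymes and 8 of 9 fatty acid enzymes (88.9%), beside 75% of tested genes, so most promoters of expressed genes carried it. The median GC content was 66.8% in the sterol enzyme windows, 67.6% in the fatty acid enzyme windows and 64.4% in the windows of tested genes. SREBF2 was the only member with the exact letters of the sterol regulatory element, found in 1.23% of tested genes, and ELOVL6 the only one with the forkhead core, found in 3.06%. Matches describe these letters only, and known elements of other spelling or position would not be found.

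Stretches of these windows are shown for SREBF2, for the 4 largest rises and for the largest 2 falls among members that had at least 100 bases free of protein-coding exons there. They are written in the direction of the gene in lower case. Capitals mark the NF-Y box (CCAAT, or ATTGG where it lies on the other strand), the sterol regulatory element in SREBF2 and the forkhead core in ELOVL6. The stretches lie at chr5:111512591-111512785 (minus strand) for STARD4, at chr1:162790452-162790701 (plus strand) for HSD17B7 and at chr2:118088221-118088451 (plus strand) for INSIG2. The stretch of MSMO1 lies at chr4:165327419-165327622 (plus strand), that of SCD at chr10:100346983-100347123 (plus strand), that of ELOVL6 at chr4:110198677-110198841 (minus strand) and that of SREBF2 at chr22:41832855-41833078 (plus strand). STARD4, MSMO1 and SCD each show more than 1 NF-Y box and INSIG2 shows none, although SCD was lower and INSIG2 higher in Akt1/2 DKO.
STARD4: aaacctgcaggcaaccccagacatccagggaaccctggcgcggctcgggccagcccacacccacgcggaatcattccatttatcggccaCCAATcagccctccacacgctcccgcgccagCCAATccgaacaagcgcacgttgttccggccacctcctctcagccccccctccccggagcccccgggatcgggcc
HSD17B7: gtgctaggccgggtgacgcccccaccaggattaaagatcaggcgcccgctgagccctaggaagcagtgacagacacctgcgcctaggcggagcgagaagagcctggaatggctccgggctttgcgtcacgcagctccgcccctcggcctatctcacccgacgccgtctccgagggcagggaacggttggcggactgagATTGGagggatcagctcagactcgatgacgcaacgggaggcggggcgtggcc
INSIG2: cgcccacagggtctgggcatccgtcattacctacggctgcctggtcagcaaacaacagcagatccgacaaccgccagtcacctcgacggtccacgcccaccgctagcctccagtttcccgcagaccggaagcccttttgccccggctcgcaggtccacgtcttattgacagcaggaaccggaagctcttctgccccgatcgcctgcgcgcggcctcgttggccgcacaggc
MSMO1: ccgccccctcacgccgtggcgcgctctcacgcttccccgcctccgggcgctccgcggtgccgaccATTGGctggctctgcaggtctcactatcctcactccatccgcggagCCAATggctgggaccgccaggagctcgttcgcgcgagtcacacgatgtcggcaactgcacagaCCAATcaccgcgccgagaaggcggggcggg
SCD: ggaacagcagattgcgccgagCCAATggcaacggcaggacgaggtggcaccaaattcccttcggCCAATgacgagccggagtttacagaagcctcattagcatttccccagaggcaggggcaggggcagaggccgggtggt
ELOVL6: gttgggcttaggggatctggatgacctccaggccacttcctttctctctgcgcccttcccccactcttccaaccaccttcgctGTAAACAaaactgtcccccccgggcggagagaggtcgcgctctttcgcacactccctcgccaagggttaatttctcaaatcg
SREBF2: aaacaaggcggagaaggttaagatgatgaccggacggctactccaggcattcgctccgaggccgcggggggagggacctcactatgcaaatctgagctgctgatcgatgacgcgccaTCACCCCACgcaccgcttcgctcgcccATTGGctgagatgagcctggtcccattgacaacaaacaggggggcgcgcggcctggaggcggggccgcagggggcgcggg

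Among the regulators, the genes for both SREBP precursors were within 1.5-fold, and the genes for the proteins that hold or escort them differed in opposite directions. SREBF2 had 4321 reads in control and 4745 in Akt1/2 DKO, a log2 difference of -0.01 (-0.07 to 0.05). SREBF1 had 1035 and 1022 reads, a log2 difference of -0.17 (-0.29 to -0.04). Neither gene's RNA level passed the threshold, and by FPKM SREBF2 was the more abundant, at 82.1 in control and 84.4 in Akt1/2 DKO against 27.1 and 25.3 for SREBF1. Exons of SREBF1 share 556 bases with RAI1 on the opposite strand, which had 1074 and 1305 reads, a log2 difference of 0.13. The strand setting of the counting is not stated, so reads in these bases could have come from either gene. SCAP, the escort, fell from 1816 to 1193 reads, a log2 difference of -0.76 (-0.86 to -0.65). INSIG2, one of the retention proteins, rose from 32 to 67 reads, a log2 difference of 0.92 (0.29 to 1.57), with the widest interval of any member because its counts were the lowest. INSIG1, the retention protein whose own gene is a known SREBP target, had 668 and 1061 reads, a log2 difference of 0.52 (0.38 to 0.66) that lay just inside the threshold. On the FPKM scale INSIG1 had 28.4 and 43.0, a log2 difference of 0.60 that passed it. The ratio of INSIG1 to SCAP by FPKM was 0.599 in control and 1.49 in Akt1/2 DKO.

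The lower SCAP value stood beside a lower level of its chromosome. SCAP lies on chromosome 3 (47413694 to 47477126, minus strand). Of the 666 genes of that chromosome with 50 or more combined reads, 579 had a log2 difference below 0, and the median was -0.53. Chromosome and neighbour medians here and below all use genes with 50 or more combined reads. The 20 nearest such genes, 10 on each side, had a median of -0.54, from which SCAP differed by -0.21. On the other 16 chromosomes that carry members the median ran from -0.20 on chromosome 8 to 0.12 on chromosome 1. No other member lies on chromosome 3, and the neighbours of the other members had medians from -0.35 (IDI1, 15 neighbours) to 0.30 (FDPS). The part of this chromosome-wide difference in the SCAP value was not tested.

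All 7 mevalonate genes had a log2 difference above 0, with a median of 0.40, beside 6749 of the 13318 genes tested above 0. Of the 7, 2 passed 1.5-fold (28.6%, against 15.9% of all genes tested that were higher and 30.9% that passed in either direction). ACAT2, the cytosolic thiolase that joins acetyl-CoA units, rose from 1074 to 2028 reads, a log2 difference of 0.77 (0.66 to 0.88). PMVK, phosphomevalonate kinase, rose from 460 to 872 reads, a log2 difference of 0.77 (0.61 to 0.94). The 2 rises were of like size although the genes act at different steps. HMGCS1, which makes HMG-CoA, had 1628 and 2353 reads and a log2 difference of 0.38 (0.29 to 0.47). MVD, which decarboxylates the diphosphate, had 676 and 994 reads and a log2 difference of 0.41 (0.27 to 0.55). These sat close to the values of IDI1, the isomerase (820 and 1200 reads, 0.40), and FDPS, the farnesyl diphosphate synthase (1808 and 2637 reads, 0.40). MVK, mevalonate kinase, had the smallest log2 difference of the 7, at 0.19 (0.01 to 0.36) from 468 and 590 reads. Thus HMGCS1, MVD, IDI1 and FDPS had nearly equal differences, and their counting intervals overlap.

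Exons of ACAT2 share 397 bases with TCP1 on the opposite strand, and those of MVK share 306 bases with MMAB. The strand setting of the counting is not stated, so reads in these bases could have come from either gene. TCP1 itself had 4016 and 4654 reads, a log2 difference of 0.06, and MMAB had 786 and 1094 reads, a log2 difference of 0.33. Exons of ACAT2 share more bases with 2 other annotated genes on the opposite strand, 1141 with a SOD2 entry and 1458 with SOD2-OT1. These entries have no row of their own in the table, so their part in the ACAT2 reads was not tested. FDPS has 8 annotated pseudogenes, none of them in the table, and how reads that match both were counted is not stated.

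Of the 10 genes from farnesyl diphosphate to cholesterol, 5 rose (50%, against 15.9% of all genes tested) and none fell past the threshold (against 15.0%), with a median log2 difference of 0.52. The largest rise was that of HSD17B7 (chromosome 1, 162790702 to 162812817, plus strand), the ketosteroid reductase of C4 demethylation. It had 75 reads in control and 243 in Akt1/2 DKO, a log2 difference of 1.55 (1.17 to 1.94), or 2.92-fold. Its stretch above carries 1 NF-Y box, 52 to 48 bases before the start. HSD17B7 has 2 annotated pseudogenes, neither of them in the table, so its counts are uncertain, and its FPKM of 8.40 and 21.3 gave a smaller log2 difference of 1.34. TM7SF2, a sterol C14 reductase (chromosome 11, 65111845 to 65116384, plus strand), rose from 303 to 672 reads, a log2 difference of 1.0 (0.80 to 1.20). Its window holds 1 NF-Y box, 74 to 70 bases before the start, and 4 Sp1 boxes. Its neighbour VPS51 shares 16 exon bases with it on the same strand and had 952 and 1377 reads, a log2 difference of 0.38.

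SC5D, which introduces the C5 double bond, rose from 187 to 389 reads, a log2 difference of 0.91 (0.65 to 1.17). SQLE, the epoxidase that is a known rate-limiting step, rose from 498 to 962 reads, a log2 difference of 0.80 (0.64 to 0.96). MSMO1, the C4 methyl oxidase, rose from 423 to 746 reads, a log2 difference of 0.67 (0.50 to 0.85), and its interval reaches below 1.5-fold. With HSD17B7 and TM7SF2 these are the 5 rises of the late pathway, and each had at most 498 reads in control. Of the other genes of these steps, 4 had smaller differences above 0. FDFT1, squalene synthase, had the highest FPKM of all members, 244 in control and 330 in Akt1/2 DKO, and a log2 difference in reads of 0.37 (0.31 to 0.44) from 3730 and 5362. EBP, the sterol isomerase, had 888 and 1168 reads and a log2 difference of 0.25 (0.12 to 0.37). NSDHL, the decarboxylating dehydrogenase that works with MSMO1 and HSD17B7, had 251 and 350 reads and a log2 difference of 0.33 (0.09 to 0.57). The 3 enzymes of C4 demethylation therefore had log2 differences of 0.67, 0.33 and 1.55.

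DHCR7, which completes the Kandutsch-Russell route, had 1396 and 1830 reads and a log2 difference of 0.24 (0.14 to 0.34). In FPKM it had 54.0 and 81.3, a log2 difference of 0.59 that passed 1.5-fold, so its call depends on the scale. LSS, which closes the ring to lanosterol, was the only sterol enzyme with a log2 difference below 0. It had 1451 and 1254 reads, a log2 difference of -0.36 (-0.47 to -0.25), which stayed within 1.5-fold. LSS also carries an NF-Y box before its start.

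STARD4, which carries cholesterol between membranes and is a known SREBF2 target, had the largest difference of all 33 members. The gene lies on chromosome 5 (111496033 to 111512590, minus strand). It rose from 83 reads in control to 355 in Akt1/2 DKO, a log2 difference of 1.95 (1.60 to 2.31), or 3.86-fold. Its FPKM was 2.75 and 12.6, still among the lower levels of the group. The stretch printed for it holds 2 NF-Y boxes, 161 to 157 and 130 to 126 bases before the start.

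**Figure D2:**
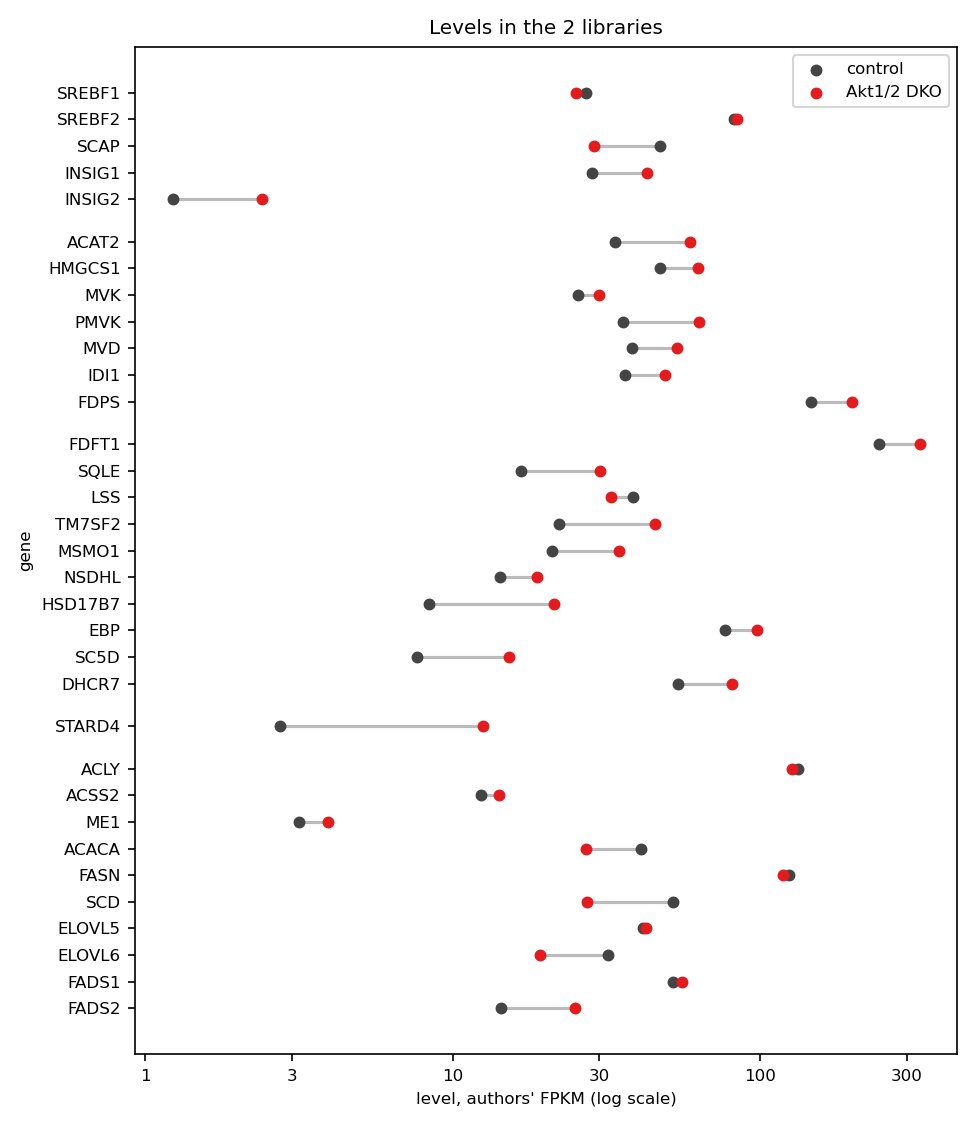
Level of each of the 33 genes in the 2 libraries (x axis, authors' FPKM, log scale), with control in grey and Akt1/2 DKO in red, ordered by role from the regulators at the top to fatty acid synthesis at the bottom. The longest lines are those of STARD4 (2.75 to 12.6) and HSD17B7 (8.40 to 21.3), and FDFT1 is the most abundant in both libraries.

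Among the members, fatty acid synthesis divided by step. The member genes that supply and assemble the chain at the highest levels were near even, whereas carboxylation, elongation and desaturation of saturated chains had lower genes. Genes outside the members did not all follow this division. The citrate carrier gene SLC25A1 fell from 1405 to 990 reads (log2 difference -0.65), and the elongation gene ELOVL7 was higher (0.87). FASN, the synthase, had the most reads of any member, 9551 in control and 9877 in Akt1/2 DKO, a log2 difference of -0.10 (-0.14 to -0.06). ACLY, citrate lyase, had 5106 and 5279 reads and the same log2 difference of -0.10 (-0.16 to -0.04). Neither approached the threshold, and under the other scalings and FPKM both stayed below 0, FASN between -0.11 and -0.05. ACSS2, which activates acetate, had 365 and 393 reads and a log2 difference of -0.04 (-0.25 to 0.17). ME1, the malic enzyme that supplies NADPH, had 107 and 143 reads and a log2 difference of 0.27 (-0.10 to 0.64). For both of these genes the interval includes 0, and no difference was detectable at this depth.

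ACACA, acetyl-CoA carboxylase, the committed step, fell from 3689 to 2559 reads, a log2 difference of -0.68 (-0.75 to -0.60). SCD (chromosome 10, 100347124 to 100364834, plus strand), the desaturase that makes oleate, had the largest fall of the members, from 2804 to 1588 reads. Its log2 difference was -0.97 (-1.06 to -0.88), or 1.96-fold lower, and its FPKM was 52.1 and 27.4. The stretch printed for SCD holds 2 NF-Y boxes, 229 to 225 and 186 to 182 bases before the start, so the box is not particular to genes that rose. ELOVL6, which elongates palmitate, fell from 1328 to 895 reads, a log2 difference of -0.72 (-0.84 to -0.59). The intervals of all 3 lay beyond 1.5-fold. Each of the 3 was also lower than its neighbours on the chromosome, whose medians were 0.20 for ACACA, 0.00 for SCD and 0.17 for ELOVL6.

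The genes for polyunsaturated chains did not follow SCD and ELOVL6. FADS2, the delta-6 desaturase, rose from 319 to 610 reads, a log2 difference of 0.79 (0.59 to 0.99). FADS1, the delta-5 desaturase, had 1625 and 2066 reads and a log2 difference of 0.20 (0.10 to 0.29). ELOVL5, which elongates polyunsaturated chains, had 1132 and 1223 reads and a log2 difference of -0.04 (-0.16 to 0.08). FADS1 and FADS2 share 490 exon bases on opposite strands, and FADS2 shares 49 bases with FEN1, so part of their reads could not be assigned with certainty. By FPKM, the ratio of SQLE to SCD was 0.322 in control and 1.10 in Akt1/2 DKO. The ratio of HMGCS1 to ACACA was 1.15 in control and 2.33 in Akt1/2 DKO. Both pairs use a fatty acid gene that was called lower, and SCD had the largest fall of the members. The ratio of FDFT1 to FASN, both within 1.5-fold, was 1.965 in control and 2.774 in Akt1/2 DKO, a smaller change in proportion. The size of the contrast between the pathways therefore depends on the pair chosen.

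Other lipid genes did not share the upward difference of the sterol enzymes. Lists fixed with the members named 84 genes in 5 groups, of which 72 had enough reads. Of these, 8 were higher (11.1%, against 15.9% of all genes tested) and 12 lower (16.7%, against 15.0%). Together this was 27.8%, against 30.9% of all genes tested, and the median log2 difference of the 72 was -0.02. Among 11 genes of SREBP processing and sterol sensing, 1 fell and none rose. ERLIN2, an endoplasmic reticulum protein of sterol-regulated degradation, fell from 1381 to 893 reads (log2 difference -0.78). The ubiquitin ligase RNF145 at -0.26 and the sterol-binding TMEM97 at 0.32 were within 1.5-fold. The other genes of this list, the protease genes MBTPS1 (-0.04) and MBTPS2 (-0.03) included, were within 1.5-fold.

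None of the 10 tested genes of the isoprenoid branches passed the threshold, against 30.9% of all genes tested. ACAT1, the mitochondrial thiolase, had 1258 and 952 reads (log2 difference -0.55), in contrast to the rise of cytosolic ACAT2. GGPS1, which makes geranylgeranyl diphosphate, had 300 and 432 reads (0.38), FNTA of the prenyltransferases 498 and 432 (-0.35), and COQ2 of ubiquinone synthesis 289 and 267 (-0.26). In sterol traffic, storage and efflux 1 of 13 tested genes fell and none rose, against 15.0% and 15.9% of all genes tested. SOAT1, which esterifies cholesterol for storage, fell from 598 to 385 reads (log2 difference -0.78). The lipoprotein receptors LRP8 and VLDLR had log2 differences of 0.40 and 0.39, and the oxysterol receptor NR1H2 one of 0.30, all within 1.5-fold. ABCA1, an efflux pump, had 7 and 0 reads and was below the read filter.

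Larger differences occurred among genes of fatty acid elongation and activation. Of 19 tested genes in the further fatty acid list, 2 rose and 5 fell, beside 15.9% and 15.0% of all genes tested. ELOVL4, which makes very long chains, rose from 29 to 315 reads (log2 difference 3.29, 2.74 to 3.89), and ELOVL7 rose from 125 to 253 (0.87). HACD2, a dehydratase of the elongation cycle, fell from 3759 to 1343 reads (-1.63), and HSD17B12, a reductase of that cycle, fell from 620 to 436 (-0.66). HACD2 lies on chromosome 3, whose median was -0.53. Of 19 tested genes for acyl-CoA activation and glycerolipid assembly, 6 rose and 5 fell, beside the same shares of all genes tested. Acyl-CoA synthetase ACSL4 rose from 4 to 101 reads (log2 difference 4.51, 3.11 to 6.41), with FPKM values of 0.45 and 3.03 that give 2.75. ACSL1 rose from 76 to 708 reads (3.07, 2.73 to 3.43). GPAT3, an acyltransferase, rose from 32 to 130 reads (1.87), and DGAT2, which completes triglyceride synthesis, fell from 172 to 58 (-1.72). These lists spread wider than the sterol enzymes, without a common direction.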

How the data were processed

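One RNA library from CWR22rv1/Akt1/2 DKO cells and 1 from control cells were analysed. For both libraries the deposited table holds the authors' estimated counts per gene, without normalization, and the authors' FPKM values. The submitters' processing notes name fastp 0.20.0, TopHat, Cufflinks, edgeR and build GRCh38.p10, without their roles. The authors' own fold changes, p-values and FDR were not used. Estimated counts were rounded, genes under 10 combined reads were dropped, and edgeR 4.0.16 (R 4.3.3) gave TMM factors. A library under 3 reads was set to 3. Intervals are Clopper-Pearson (scipy 1.17.1). FPKM below 0.01 were set to 0.01. The steps were tested on simulated libraries with counting error only and few changed genes. In the real libraries 30.9% of genes tested passed 1.5-fold, so the simulation does not check the scaling under that setting. No test was possible with 1 library per condition. Gene positions come from GENCODE release 29. Members and lists were chosen with earlier results of these data known. The genes named were all members, AKT1, AKT2, the markers, overlapping genes and, in each other list, up to 4 genes with the largest absolute difference among those with 50 or more combined reads. ABCA1, MBTPS1, MBTPS2 and SLC25A1 were named after their values were seen. Alternatives were total count, DESeq2 1.42.0 and upper-quartile scaling, FPKM, 3 read filters and a 2-fold threshold. Some genes of the pathway are not reported here. Intervals cover counting error only, since there was 1 library per condition, and the reads carry no molecular identifiers.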

Additional observations from a re-analysis of the deposited data

How the results depend on the processing

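No paired analysis was possible because there was only 1 library in each arm, and no replicate could be left out. Total count, DESeq2 and upper-quartile scaling and the other 3 read filters left the members at 14 past 1.5-fold, 10 higher and 4 lower. They moved every log2 difference by at most 0.05, which changed the sign of 3 members within 1.5-fold (SREBF2, ELOVL5 and ACSS2) under total count and under upper-quartile scaling, as FPKM also did. With FPKM 16 members passed, 12 higher, since INSIG1 (0.60) and DHCR7 (0.59) joined, and AKT1 stood at -2.65. At 2-fold, 3 members passed (STARD4, HSD17B7 and TM7SF2, 3 higher and 0 lower), as did 9 other lipid genes (4 higher, 5 lower) and 2391 of all genes tested (1333 higher, 1058 lower). The excess of higher members over all genes was thus lost (9.09% against 10%), and TM7SF2 lies on that threshold. The members held 0.289% of the summed FPKM in control and 0.349% in Akt1/2 DKO, below their shares of reads. The median of the sterol enzymes ran from 0.40 to 0.49 and that of the fatty acid enzymes from -0.08 to -0.01 over all alternatives.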
